A study of Mus musculus with 14 samples.

Results

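Aggrecan, versican, their link proteins and the genes that make, cut and bind hyaluronan were followed as 10 genes, *Acan*, *Vcan*, *Hapln1*, *Hapln3*, *Has1*, *Has2*, *Has3*, *Hyal1*, *Hyal2* and *Cd44*. They were found by symbol among the 55487 genes of the count table, and all 10 were among the 16915 genes whose CPM (counts scaled to library size) passed 1 in at least 3 libraries. RNA was sequenced from caudal intervertebral discs of 14 male mice, with 5 discs pooled per mouse. The db/db mice (n = 3) were homozygous for the Lepr db mutation of the leptin receptor, and the db/+ littermates (n = 3) were heterozygous and so carried 1 mutant allele. Both were 3 months old, and the labels give them no treatment. The STZ-HFD mice (n = 4) were C57BL/6J, entered the study at 12 weeks of age, ate a high-fat diet for 4 to 6 weeks, then received streptozocin once at 100 mg/kg and stayed on the diet for another 12 weeks. The labels give this diet as 80% kcal from fat and the study's methods as 60%. The Con+Veh mice (n = 4), named Wild-type in the labels, were C57BL/6J of the same starting age on chow with 13% kcal from fat and received the buffer alone. Lepr db is a germline mutation and acts in every tissue. STZ-HFD and Con+Veh mice differed in diet and in streptozocin together, so diet and drug cannot be told apart.

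Aggrecan and versican are large chondroitin sulfate proteoglycans that bind hyaluronan through their N-terminal domain. Link proteins lock that bond, and the resulting aggregates hold water and let the disc resist compression. Hyaluronan is spun out at the cell membrane by the synthases, is cut by hyaluronidases and binds the surface receptor CD44, through which cells hold and take up their pericellular coat.

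Total counts per library ran from 16076908 to 58943169, and ribosomal RNA took 28.06% to 60.25% of them. STZ-HFD replicate 1 was the shallowest library and stood apart in its TMM scaling factor, at 1.58 against 0.693 to 0.742 in the other 3 STZ-HFD libraries. RIP, an ending with no meaning given, stands in the library names of Con+Veh replicate 2 and of STZ-HFD replicate 4. Cartilage markers were detected in every group, and their summed CPM was 33210 to 48950 in db/+, 14990 to 40290 in db/db, 2608 to 14690 in Con+Veh and 649.8 to 1123 in STZ-HFD. Skeletal muscle markers, which do not belong to the disc, summed to 3362 to 26500 CPM over the 14 libraries. The 9 markers of notochord and nucleus pulposus summed to 638.2 to 4427 CPM in db/+ and 965.4 to 1285 CPM in db/db. Their sum was 2002 to 5738 CPM in Con+Veh and 3547 to 7786 CPM in STZ-HFD. Of these markers, Noto was at 0 in all db/db libraries and Shh in all db/+ libraries. In pooled tissue, fewer cells of a type and less RNA per cell cannot be told apart.

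The proteoglycan and link protein genes sit in pairs on the mouse genome (GRCm38). *Acan* (ENSMUSG00000030607) lies at chr7:79053483-79115099 on the plus strand, and *Hapln3* (ENSMUSG00000030606) at chr7:79115102-79131018 on the minus strand. Only 2 bases separate their ends, and whether reads were counted by strand is not given in the sources used here. Reads running past the end of *Acan* therefore cannot be told apart from those of *Hapln3*, and the counts of *Hapln3* are uncertain. *Hapln1* (ENSMUSG00000021613) lies at chr13:89539796-89611652 on the plus strand, and *Vcan* (ENSMUSG00000021614) at chr13:89655312-89742509 on the minus strand, 43659 bases away. *Hyal2* and *Hyal1* are 4147 bases apart on chromosome 9, and *Hyal1* overlaps the annotated *Hyal3* and *Naa80*. *Has2* overlaps the antisense gene *Has2os* on chromosome 15, and *Has3* overlaps *Chtf8* on chromosome 8, so their low counts may hold reads of these neighbors.

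Versican exists in forms that differ in the exons carrying the chondroitin sulfate attachment regions, GAG-alpha (exon 7, 2880 bases, chr13:89702918-89705797) and GAG-beta (exon 8, 5217 bases, chr13:89688285-89693501). The annotated transcript Vcan-203 holds both, the form known as V0. Vcan-206 skips GAG-alpha (V1), Vcan-202 skips GAG-beta (V2) and Vcan-201 skips both (V3). The 3 exon joins that leave exon 6 are shown because they differ in which GAG exons are skipped next. The join into exon 7 cannot tell Vcan-203 (V0) from Vcan-202 (V2), because both forms keep GAG-alpha. Among these forms, the join into exon 8 belongs to Vcan-206 and the join into exon 9 to Vcan-201. The lower-case letters are the end of exon 6 (chr13:89712205-89712224, minus strand, GRCm38) and the capitals are the first 20 bases of the exon joined to it, exon 7 in Vcan-203, exon 8 in Vcan-206 and exon 9 in Vcan-201.
Vcan-203: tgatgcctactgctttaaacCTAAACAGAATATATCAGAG
Vcan-206: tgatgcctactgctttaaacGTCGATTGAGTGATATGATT
Vcan-201: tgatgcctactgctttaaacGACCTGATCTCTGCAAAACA

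The 250 bases before the RefSeq start of *Acan* (chr7:79052976-79053225, plus strand) and of *Vcan* (chr13:89742513-89742762, minus strand), both of GRCm38.p6, are shown because both genes were called lower in STZ-HFD discs. Capitals mark the GC box GGGCGG on either strand, which overlaps itself once in *Acan*.
Acan: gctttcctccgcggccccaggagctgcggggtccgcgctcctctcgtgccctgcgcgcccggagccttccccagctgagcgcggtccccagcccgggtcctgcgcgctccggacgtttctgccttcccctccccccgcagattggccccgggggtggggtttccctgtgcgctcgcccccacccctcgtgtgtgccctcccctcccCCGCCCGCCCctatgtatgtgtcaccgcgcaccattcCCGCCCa
Vcan: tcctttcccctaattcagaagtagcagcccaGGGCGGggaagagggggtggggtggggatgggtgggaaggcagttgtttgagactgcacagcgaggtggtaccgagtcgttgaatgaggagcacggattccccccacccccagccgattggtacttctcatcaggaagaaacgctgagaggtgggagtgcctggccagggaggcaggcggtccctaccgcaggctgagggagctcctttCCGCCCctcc

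The *Acan* window held the GC box 3 times and the *Vcan* window 2 times, and 32.7% of 32851 mouse promoter windows of this length held it at least once. The SOX motif ACAAAG and the TATA box TATAAA, searched on both strands, were in neither window, and 16.5% and 12.4% of all windows held them. The window of *Hapln1*, the other gene called lower, held none of the 3 motifs, and it is not printed because it overlaps an annotated exon. Promoters were matched for 8 of the 10 genes, all but *Has2* and *Has3*.

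By mean RPKM, which is CPM per kilobase of exon, aggrecan was the most abundant of the 10 genes in all 4 groups. Mean RPKM of *Acan* was 889 ± 336 (SD, n = 3) in db/+, 428 ± 168 (n = 3) in db/db, 181 ± 38.9 (n = 4) in Con+Veh and 69.8 ± 35.2 (n = 4) in STZ-HFD. *Vcan* followed at 154, 103, 86.5 and 14.2 RPKM, *Hapln1* at 74.3, 94.4, 18.4 and 7.15 RPKM and *Cd44* at 9.24, 10.3, 7.47 and 3.98 RPKM in the same order of groups. The other 6 genes had group means of 0.296 to 1.98 RPKM, and their counts per library ran from 21 for *Hyal1* to 591 for *Hapln3*. By the ranges over libraries, *Acan* was above *Vcan* in all 4 groups, *Vcan* overlapped *Hapln1* in db/db and STZ-HFD, and *Hapln1* overlapped *Cd44* in Con+Veh and STZ-HFD. *Cd44* was above the gene next in order in all 4 groups, and most neighbors among the 6 low genes overlapped. The 2 cohorts differ in age, and the strain and diet of the Lepr db mice are not given in the sources used here, so levels stand side by side and diabetic mice were set only against controls of the same cohort.

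**Figure D1:**
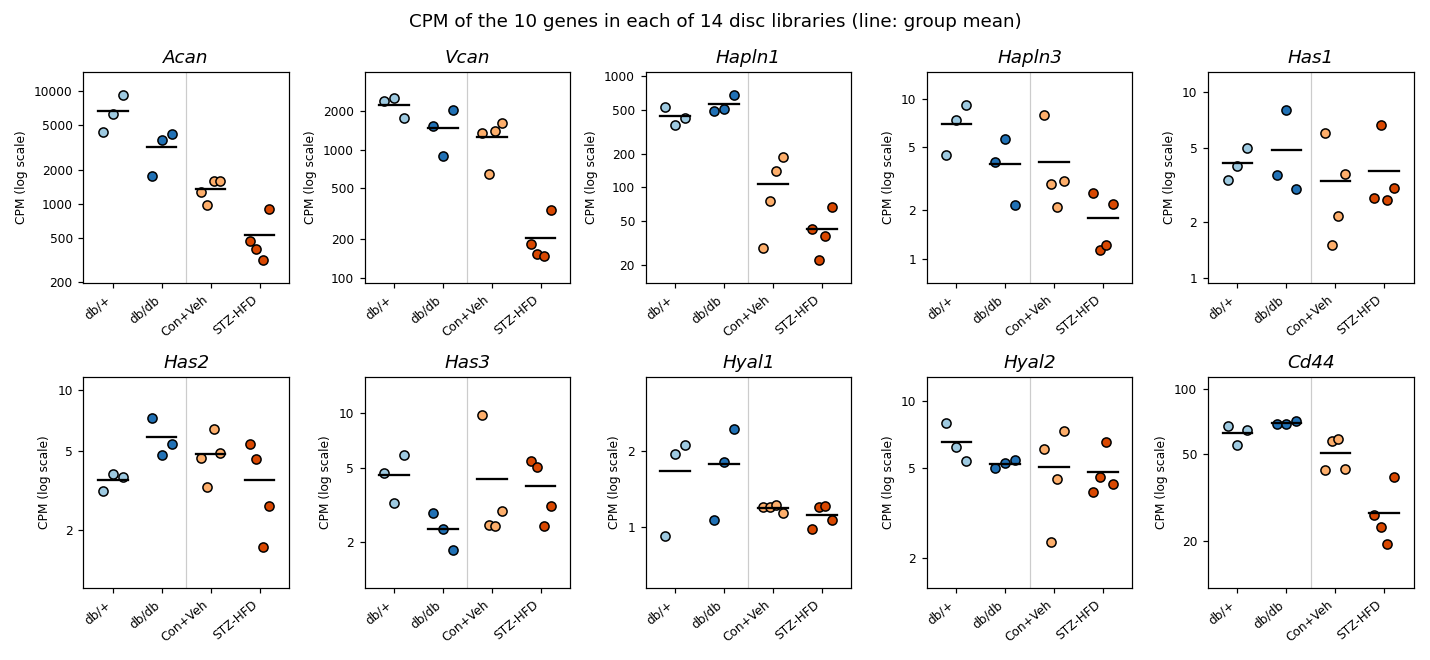
CPM (log axis) of the 10 genes in each of the 14 libraries, 1 point per mouse, with the group mean as a line and a gray line between the cohorts. *Vcan*, *Acan* and *Cd44* of the 4 STZ-HFD mice lie below all 4 Con+Veh mice, and *Hyal1* is the lowest gene, at 0.923 to 2.44 CPM.

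In STZ-HFD discs both large proteoglycans and the main cartilage link protein fell. Versican fell 6.79-fold, *Hapln1* 3.2-fold and aggrecan 3.01-fold against Con+Veh, which made 3 of the 10 genes called lower (limma with quality weights, where a call needs a Benjamini-Hochberg adjusted p below 0.05 and a log2 fold change of 1 or more in size). Of all 16915 genes tested, 1.31% were called lower and 1.3% higher. The median log2 fold change of the 10 genes was -0.86, against -0.04 over all genes, and 7 of the 10 were below 0. In CPM, 3 of the 10 genes lay below Con+Veh without overlap, where 2.77% of all genes did and 1.97% lay above, 4.74% in all.

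Versican, the proteoglycan of the annulus and of provisional matrices, had 1344, 639.3, 1404 and 1615 CPM in the Con+Veh libraries. In the STZ-HFD libraries it had 184.1, 152.2, 146.5 and 336.2 CPM. The highest STZ-HFD library was below the lowest Con+Veh library. The log2 fold change was -2.76 (SE 0.30, adjusted p = 0.000163), and by unadjusted p *Vcan* ranked 4 among all genes tested. Without STZ-HFD replicate 1 it was -2.81 (adjusted p = 0.00037), and without the 2 RIP libraries -3.28 (adjusted p = 1.33e-05). When the fit also held a score of adipocyte markers, the value was -2.93 and the adjusted p 0.0806, which ended the call. Over all genes that fit called 1, where the main fit called 441. The score did not overlap between the groups, at 5.053 to 5.678 mean log2 CPM in STZ-HFD and 4.003 to 4.98 in Con+Veh. This fit therefore cannot well separate the score from the group. The 10 adipocyte markers all had positive log2 fold changes in STZ-HFD, with 1 called higher and summed CPM of 1047 to 1572 against 625.1 to 1110.

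Aggrecan, the main load-bearing proteoglycan of cartilage and disc, had 1261, 980, 1585 and 1580 CPM in Con+Veh. In STZ-HFD it had 466.4, 395.6, 318 and 905 CPM. The groups did not overlap, although STZ-HFD replicate 4 came close to Con+Veh replicate 2, the other library named RIP. The log2 fold change was -1.59 (SE 0.32, adjusted p = 0.0154). It was -1.67 without STZ-HFD replicate 1 (adjusted p = 0.0129) and -2.09 without the RIP libraries (adjusted p = 0.00346). The call was lost without Con+Veh replicate 3 (adjusted p = 0.268), Con+Veh replicate 4 (0.122) or STZ-HFD replicate 3 (0.17), although the log2 fold change stayed between -2.05 and -1.28 whichever library was left out. It was also lost without quality weights (adjusted p = 0.104) and in edgeR's quasi-likelihood test (0.206). These settings left few calls over all genes, 17 to 29 where the main fit had 441. The *Acan* call was also lost with no filter on low counts, with the muscle score, from transcript totals and with the adipocyte score. Those fits called 130, 127, 57 and 1 over all genes, in the same order.

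*Hapln1*, the cartilage link protein that fixes aggrecan to hyaluronan, had 28.64, 74.96, 141.4 and 188.8 CPM in Con+Veh and 42.59, 22.32, 36.78 and 67.13 CPM in STZ-HFD. The groups overlapped, because Con+Veh replicate 1 was lower than 3 of the 4 STZ-HFD libraries. That library had the lowest quality weight of the 14, 0.275. Con+Veh replicate 2 had 0.462, replicate 3 had 3.05 and replicate 4 had 1.81. These weights hold for every gene, so on the control side the fit rested mainly on Con+Veh replicates 3 and 4. The log2 fold change was -1.68 (SE 0.33, adjusted p = 0.013), and the call was lost without the weights (adjusted p = 0.357), in edgeR's quasi-likelihood test (0.24), in DESeq2 (-1.33, 0.0597), with no filter on low counts (0.162) and from transcript totals (0.0694). The same 3 libraries that ended the *Acan* call ended this one, with an adjusted p of 0.267 without Con+Veh replicate 3, 0.14 without Con+Veh replicate 4 and 0.131 without STZ-HFD replicate 3. Fits with the muscle score or the adipocyte score ended it too.

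*Cd44*, the hyaluronan receptor, was 42.55, 57.97, 59.17 and 42.69 CPM in Con+Veh and 26.15, 23.11, 19.41 and 39.21 CPM in STZ-HFD. All STZ-HFD libraries were lower than all Con+Veh libraries. Its log2 fold change of -0.97 (SE 0.22, adjusted p = 0.0237) was just under the minimum, so it was not called. It passed both limits without STZ-HFD replicate 1 (-1.03, adjusted p = 0.0214), without STZ-HFD replicate 4 (-1.28, 0.0103), without Con+Veh replicate 1 (-1.003, 0.02), without the RIP libraries (-1.20, 0.0169) and with the GC correction (-1.01, 0.0143). Its adjusted p was above 0.05 in edgeR's quasi-likelihood test (0.146), without quality weights (0.119), with no filter on low counts (0.0847) or filterByExpr (0.0531), in the STZ cohort fitted alone (0.0745), from transcript totals (0.116), with the muscle (0.229) or adipocyte score (0.357), and without Con+Veh replicate 3 (-0.77, 0.393), Con+Veh replicate 4 (0.0873), STZ-HFD replicate 2 (0.0559) or STZ-HFD replicate 3 (-0.74, 0.263).

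The hyaluronan synthases had few counts and no call. *Has2*, the synthase used most in connective tissue, was 4.592, 3.283, 6.439 and 4.889 CPM in Con+Veh and 5.386, 4.539, 1.646 and 2.646 CPM in STZ-HFD. The groups overlapped, and the log2 fold change was -1.07 (SE 0.34, adjusted p = 0.0984). This size depended on the quality weights, since it was -0.51 without them (adjusted p = 0.663), -0.43 in edgeR's quasi-likelihood test (0.643) and -0.41 in DESeq2 (0.676), and it was -0.63 without STZ-HFD replicate 3. *Has1* and *Has3*, the other synthases, had log2 fold changes of 0.35 (adjusted p = 0.745) and 0.18 (0.855). The lysosomal *Hyal1* and the membrane-anchored *Hyal2*, which cut hyaluronan, had log2 fold changes of -0.08 (adjusted p = 0.956) and 0.06 (0.943). The 95% confidence interval reached from -1.14 to 0.98 for *Hyal1* and from -0.58 to 0.71 for *Hyal2*, so the interval of *Hyal1* took in -1. *Hapln3*, a link protein expressed outside cartilage too, had a log2 fold change of -0.74 (adjusted p = 0.503).

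The cartilage marker list moved with the matrix genes in STZ-HFD. All 11 of its tested genes had negative log2 fold changes and 4 were called lower. For this and the lists below, the shares over all genes were 1.31% called lower and 1.3% called higher. *Sox9* is also in the list of aggrecan regulators described further on. All 12 skeletal muscle markers had positive log2 fold changes and 4 were called higher. Their summed CPM was 9799 in STZ-HFD replicate 1 and 23700 to 26500 in the other STZ-HFD libraries, against 9399 to 12430 in Con+Veh. When the fit also held a score of these muscle markers, *Vcan* had a log2 fold change of -3.08 (adjusted p = 0.0106), while *Acan* had -0.97 (adjusted p = 0.342) and *Hapln1* -1.60 (adjusted p = 0.148). Of the 8 macrophage markers, 3 were called lower and all had negative log2 fold changes, with summed CPM of 76.55 to 151.5 against 105.2 to 238.1. Of the 8 markers of annulus fibrosus and tendon, 2 were called lower and 7 were below 0 (median -0.79, summed CPM 1052 to 3105 against 1899 to 3748). Of the 9 bone markers, 2 were called lower and 7 were below 0 (median -0.82, summed CPM 89.39 to 243.5 against 110.5 to 366.1). No marker of notochord and nucleus pulposus, endothelium, erythroid cells, or neutrophils and marrow was called. Of the 7 tested notochord and nucleus pulposus markers, 5 were above 0 (median 0.22, summed CPM 3547 to 7786 against 2002 to 5738). Above 0 were 3 of 6 tested markers for endothelium, 2 of 5 for erythroid cells and 0 of 3 for neutrophils and marrow. What part these cells had in the values of the matrix genes was not tested further.

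**Figure D2:**
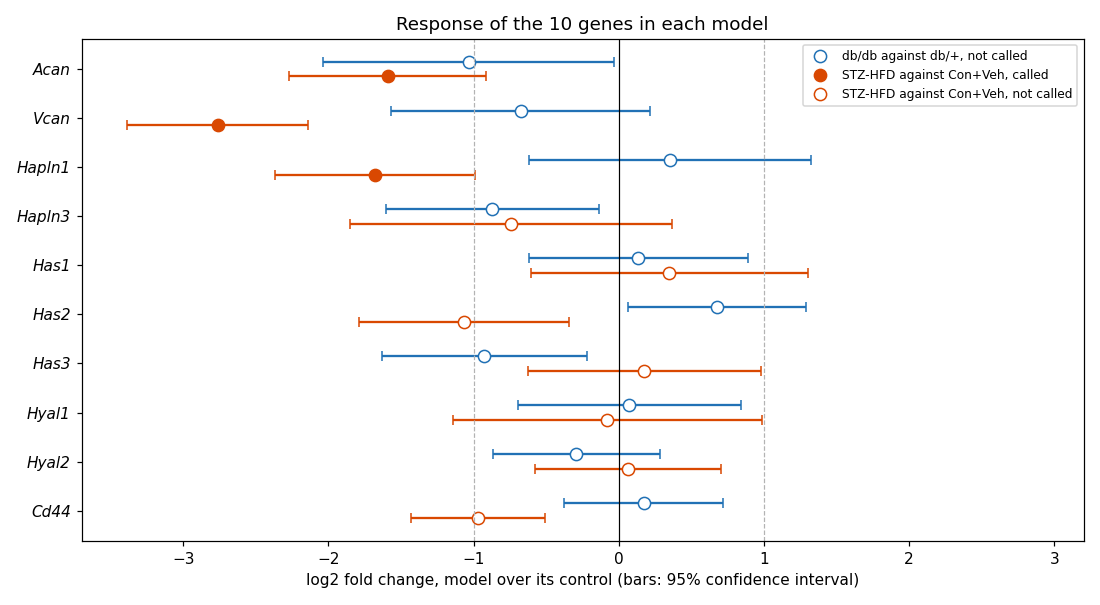
The log2 fold change of each gene in db/db against db/+ (blue) and in STZ-HFD against Con+Veh (orange), with 95% confidence intervals, filled where called and with dashed lines at the minimum of 1. Only *Vcan*, *Acan* and *Hapln1* in STZ-HFD are filled, at -2.76, -1.59 and -1.68.

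In db/db discs none of the 10 genes was called, where 1.66% of all genes were called, 1.23% higher and 0.432% lower. The test was the same limma fit, in which 4 of the 10 genes had an unadjusted p under 0.05, as had 21.1% of all genes. DESeq2 called 0 of the 10 and 212 over all genes. edgeR's quasi-likelihood test called 0 over all genes here, so its 0 of the 10 says nothing about these genes. The median log2 fold change of the 10 genes was -0.11 and that of all genes -0.04. In CPM, 4 genes had no overlap between the groups, *Acan* and *Has3* lower and *Has2* and *Cd44* higher, where 25.8% of all genes had none, 11.7% lower and 14.1% higher.

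*Acan* was 4339, 6261 and 9314 CPM in db/+ and 1773, 3679 and 4147 CPM in db/db. The highest db/db library was just under the lowest db/+ library. The log2 fold change was -1.03 (SE 0.48, unadjusted p = 0.0441, adjusted p = 0.224). Across 16900 genes of known GC content, a higher GC content went with a lower log2 fold change in db/db (Spearman's rho -0.428, as a description over genes, which are not independent), and *Acan* is at percentile 78.9 for GC content. After removing the GC trend of each library its log2 fold change was -0.76 (adjusted p = 0.474), and with the muscle score it was -1.79 (adjusted p = 0.0906). It was -0.66 without db/db replicate 1 (adjusted p = 0.522), and no alternative brought a call, the lowest adjusted p being 0.0512 with no filter on low counts. *Vcan* was 2386, 2523 and 1775 CPM in db/+ and 1529, 887.6 and 2036 CPM in db/db, with overlap and a log2 fold change of -0.68 (SE 0.42, adjusted p = 0.371).

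*Hapln1* was 526.7, 365.3 and 423.8 CPM in db/+ and 482.8, 504.6 and 684.7 CPM in db/db, and its log2 fold change was 0.35 (SE 0.46, adjusted p = 0.698). *Hapln3* had 4.431, 7.304 and 9.187 CPM in db/+ and 4.013, 5.57 and 2.152 CPM in db/db, with overlap and a log2 fold change of -0.87 (adjusted p = 0.164). Neither passed the test. *Hapln1* is at GC percentile 6.75, and with the GC trend removed its log2 fold change was -0.04 (adjusted p = 0.981) and that of *Hapln3* -0.75 (adjusted p = 0.301), so their opposite signs rested on the uncorrected values. With the adipocyte score they were -0.60 and -0.08. That score did not overlap between the groups, at 4.427 to 4.898 mean log2 CPM in db/db and 2.961 to 3.805 in db/+. The fit called 0 over all genes in db/db and cannot well separate the score from the group.

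*Has2* was 3.139, 3.826 and 3.668 CPM in db/+ and 7.286, 4.752 and 5.405 CPM in db/db. Every db/db library was higher, and the log2 fold change was 0.67 (SE 0.29, adjusted p = 0.197). *Has2* is at GC percentile 9.16, and after removal of the GC trend its log2 fold change was 0.28 (adjusted p = 0.703). *Has3* was 4.719, 3.252 and 5.876 CPM in db/+ and 2.864, 2.354 and 1.822 CPM in db/db, every library lower, with a log2 fold change of -0.93 (SE 0.33, adjusted p = 0.133). It was -4.81 from transcript totals (adjusted p = 0.2). With the adipocyte score, which cannot well be separated from the group here, it was -0.24 (adjusted p = 0.95). *Has1* was not separated, with a log2 fold change of 0.14 (adjusted p = 0.866).

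For the hyaluronidases the log2 fold changes were 0.07 in *Hyal1* (adjusted p = 0.932) and -0.29 in *Hyal2* (adjusted p = 0.569). *Cd44* was 67.41, 55.3 and 65.15 CPM in db/+ and 68.98, 69.08 and 71.08 CPM in db/db. The groups did not overlap, yet the log2 fold change was only 0.17 (SE 0.26, adjusted p = 0.748). In db/db, 6 of the 10 adipocyte markers were called higher (summed CPM 554.8 to 1063 against 258.7 to 542.4) and 1 of the 12 skeletal muscle markers lower. Of the 6 endothelium markers 1 was called higher, and no marker of the other lists was called. Over all genes, 1.23% were called higher and 0.432% lower. Of the 12 muscle markers 11 were below 0 (median log2 fold change -0.996), as were 8 of 9 bone markers (-0.904). Below 0 were also 9 of 11 tested cartilage markers (-0.570) and 5 of 7 for notochord and nucleus pulposus (-0.677). Above 0 were 8 of 10 adipocyte markers, 6 of 6 for endothelium and 3 of 3 for neutrophils and marrow. So were 5 of 8 macrophage markers, 5 of 8 for annulus fibrosus and tendon and 3 of 5 for erythroid cells. The part of such cells in the values was not tested beyond fits with a marker score.

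The responses of the models differed for versican. The difference of the log2 fold changes, STZ-HFD minus db/db, was -2.09 for *Vcan* (SE 0.52, adjusted p = 0.0479), and it was the only 1 of the 10 genes called, where 1.77% of all genes were, 0.816% lower and 0.952% higher. This call was close to the threshold. It was lost without db/db replicate 1 or 3, any of the 3 db/+ mice, Con+Veh replicate 3 or 4, or STZ-HFD replicate 2 or 3, with adjusted p of 0.076 to 0.185, while the difference stayed between -2.49 and -1.82. edgeR's quasi-likelihood test gave -2.02 (adjusted p = 0.219). Over all genes, the main fit called 299 differences, these fits with 1 mouse left out 4 to 254, and edgeR 5. The differences were -2.03 for *Hapln1* (adjusted p = 0.0713), -1.74 for *Has2* (0.0567), -1.14 for *Cd44* (0.0916), 1.10 for *Has3* (0.269) and -0.56 for *Acan* (0.678), none of which passed. For *Hapln3*, *Has1*, *Hyal1* and *Hyal2* they lay between -0.15 and 0.36.

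Ratios of counts within a library do not depend on how libraries are scaled. The ratio of *Acan* to *Vcan* counts was 0.938, 1.53, 1.13 and 0.978 in Con+Veh and 2.53, 2.60, 2.17 and 2.69 in STZ-HFD. All STZ-HFD mice were above all Con+Veh mice, and the mean log2 ratio was 0.17 ± 0.32 in Con+Veh and 1.32 ± 0.14 in STZ-HFD (SD, n = 4 each), a factor of 2.22. The two-sided exact permutation p of this difference was 0.0286, the smallest that 4 mice against 4 allow, and 0.171 after adjustment over the 6 ratio tests, among which no adjusted p could have gone below 0.05 at these group sizes. In db/+ the ratio was 1.82, 2.48 and 5.25 and in db/db 1.16, 4.14 and 2.04, with overlap (exact permutation p = 0.6, adjusted 0.72).

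The ratio of *Acan* to *Hapln1* counts was 8.24, 17.1 and 22.0 in db/+ and 3.67, 7.29 and 6.06 in db/db. The groups did not overlap, and the exact permutation p was 0.1, the smallest that 3 mice against 3 allow (adjusted 0.2). In Con+Veh it was 44.0, 13.1, 11.2 and 8.37 and in STZ-HFD 10.9, 17.7, 8.64 and 13.5, with overlap (exact permutation p = 0.8). The ratio of *Has2* to *Hyal2* counts was 0.395, 0.615 and 0.685 in db/+ and 1.45, 0.902 and 0.997 in db/db, again without overlap (exact permutation p = 0.1, adjusted 0.2). From gene totals of the transcript estimates this difference took the opposite sign. In the STZ cohort the *Has2* to *Hyal2* ratio overlapped between groups (exact permutation p = 0.4).

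**Figure D3:**
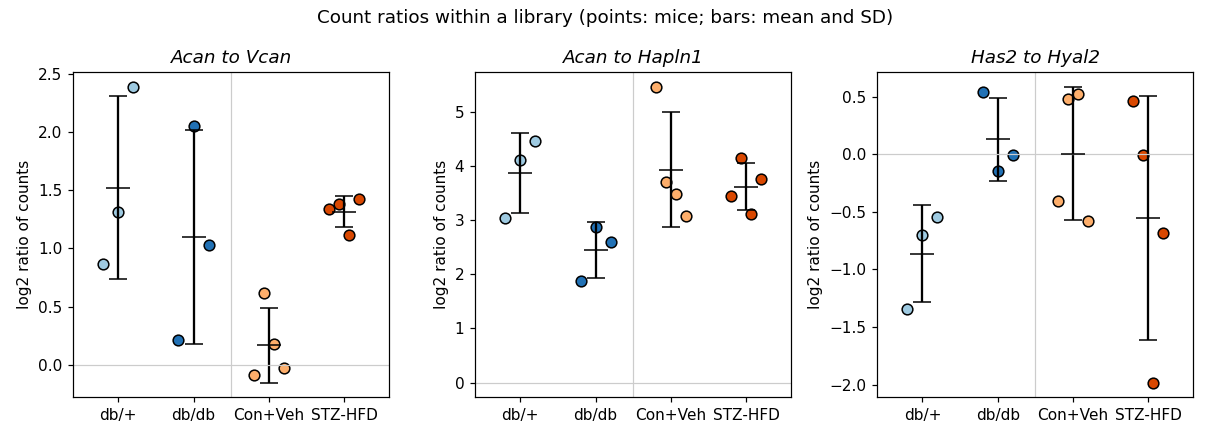
The log2 ratio of counts of 2 genes within a library, 1 point per mouse, with mean and SD of each group as bars. *Acan* to *Vcan* separates STZ-HFD (mean 1.32) from Con+Veh (mean 0.17), and *Acan* to *Hapln1* and *Has2* to *Hyal2* separate db/db from db/+.

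Estimated counts of aggrecan and versican were split over annotated transcripts. These counts are not divided by length, so a long transcript takes a larger share than its share of molecules. Of the 11 annotated *Acan* and *Vcan* transcripts, 10 had at least 10 estimated counts in 3 libraries. Acan-201, the full transcript of 17 exons, took 74.2% to 100% of the *Acan* estimate, and the shorter Acan-202 of 7 exons took the rest, at 7355 and 2596 bases in length. Acan-202 was highest in Con+Veh replicate 1, at 25.9%, and listed at 0 in Con+Veh replicate 2, STZ-HFD replicate 1 and db/db replicate 3.

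Vcan-203, with both GAG exons, was 88.2%, 87.6% and 93.0% of the *Vcan* estimate in db/+, 87.6%, 94.8% and 81.3% in db/db, 96.3%, 91.5%, 90.5% and 94.6% in Con+Veh and 90.8%, 69.9%, 79.6% and 95.6% in STZ-HFD. Vcan-206, which skips GAG-alpha through the second join shown above, was 9.32%, 10.2% and 4.67% in db/+ and 9.87%, 3.27% and 16.2% in db/db. It was 1.10%, 5.48%, 6.91% and 2.40% in Con+Veh and 0%, 21.1%, 17.7% and 1.68% in STZ-HFD. The STZ-HFD mice thus split, with replicates 2 and 3 high and 1 and 4 low, and the groups overlapped. The mean share of Vcan-206 was 10.1% ± 10.8 in STZ-HFD and 3.97% ± 2.68 in Con+Veh (SD, n = 4 each, two-sided exact permutation p = 0.4, adjusted 0.8 over 20 tests). In db/db it was 9.79% ± 6.47 and in db/+ 8.05% ± 2.96 (n = 3 each, exact permutation p = 0.8). Vcan-202 reached 5.49% in STZ-HFD replicate 1 and stayed under 0.1% in the other 13 libraries, and Vcan-201 did not pass the minimum. None of the 20 tests of transcript shares passed, and none could have, because the smallest exact p of 0.1 (3 mice against 3) or 0.0286 (4 against 4) stays above 0.05 after adjustment over 20 tests. These shares are estimates from short reads, and depth limits them most in STZ-HFD, where *Vcan* was lowest.

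**Figure D4:**
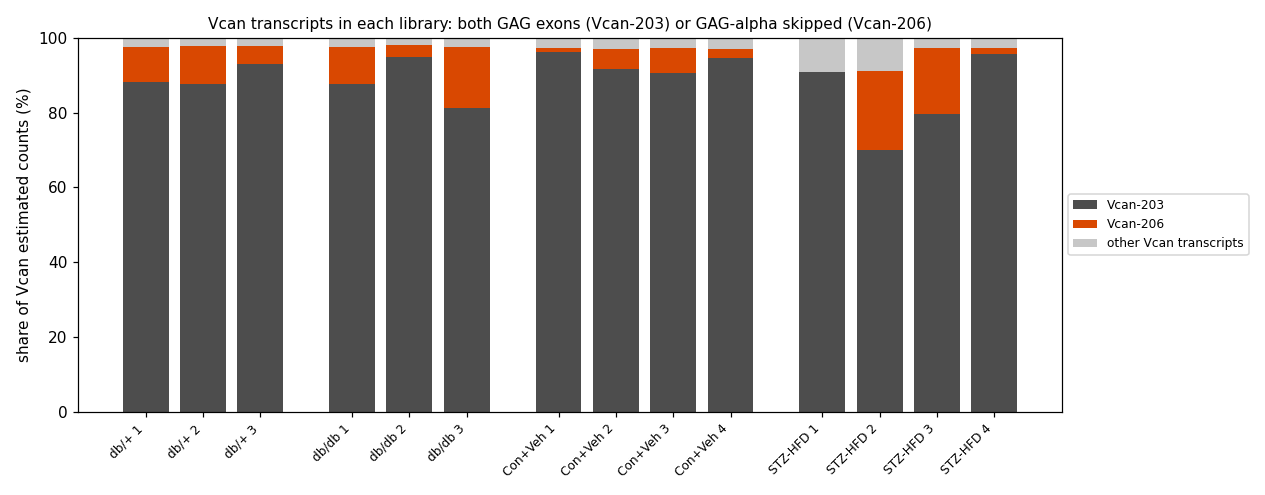
Stacked shares (%) of the estimated *Vcan* counts of each library taken by Vcan-203, by Vcan-206 and by all other *Vcan* transcripts. Vcan-203 is the largest part of every bar, and Vcan-206 ranges from 0% to 21.1% among the STZ-HFD mice.

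Around these 10 genes, 66 others of the same biology were listed in 5 groups, and 59 passed the filter. In STZ-HFD, 6 of the 59 were called lower and 1 higher, where 2.61% of all genes were called in either direction. The median of the 59 log2 fold changes was -0.51, against -0.04 over all genes, and 45 were below 0. In db/db, 1 was called higher and 1 lower, where 1.66% of all genes were called, and the median was -0.02. The count in STZ-HFD was 4 without STZ-HFD replicate 4, 0 without Con+Veh replicate 3, Con+Veh replicate 4 or STZ-HFD replicate 3 and in edgeR's quasi-likelihood test, and 2 in DESeq2. Over all genes, these settings called 164, 17, 18, 18, 29 and 277 in the same order, where the main fit called 441. The count in db/db was 1 without db/db replicate 1, db/db replicate 2 or db/+ replicate 2, and 0 without db/+ replicate 3. Over all genes, these fits called 37, 58, 21 and 69 in the same order, where the main fit called 281.

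Among the 6 regulators of aggrecan transcription, *Sox9*, the transcription factor that turns on the cartilage matrix genes, was called lower in STZ-HFD. It was 64.16 to 134.5 CPM in Con+Veh and 29.17 to 47.48 CPM in STZ-HFD, and the log2 fold change was -1.53 (SE 0.23, adjusted p = 0.00419). In db/db it was -0.57 (adjusted p = 0.304).

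Of 20 tested chondroitin sulfate enzymes, 3 were called lower in STZ-HFD and 18 had negative log2 fold changes. *Chst11* and *Chst12*, which sulfate chondroitin at the 4-position, had -1.38 (adjusted p = 0.0184) and -1.02 (adjusted p = 0.0253). For *Chst12* the groups overlapped in CPM. *Csgalnact2*, which starts the chondroitin chain, had -1.04 (adjusted p = 0.0425). In db/db, *Chst3*, which sulfates chondroitin at the 6-position, was called lower at -1.03 (adjusted p = 0.0366), with 15.47 to 21.84 CPM in db/+ and 7.565 to 13.76 CPM in db/db. That call was lost in edgeR's quasi-likelihood test and DESeq2, without quality weights, with filterByExpr, the GC correction, either marker score or the db cohort fitted alone, from transcript totals, and without db/db replicate 1, db/db replicate 2, db/+ replicate 2 or db/+ replicate 3.

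Of 20 tested genes of hyaluronan synthesis, binding and breakdown, 2 were called lower in STZ-HFD and none in db/db. *Ugdh*, which makes the UDP-glucuronic acid used for hyaluronan and for chondroitin, had a log2 fold change of -1.19 (adjusted p = 0.0107), although the groups overlapped in CPM. *Lyve1*, a hyaluronan receptor of lymphatic vessels and some macrophages, had -1.40 (adjusted p = 0.0405), beside the lower macrophage markers given above. The responses of *Lyve1* and *Csgalnact2* also differed between the models, by -2.34 (adjusted p = 0.039) and -1.56 (adjusted p = 0.0449). Both adjusted p were close to the threshold. Calls on this difference over all genes were 299 in the main fit, and ran from 3 without quality weights to 423 without STZ-HFD replicate 1.

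Of the 10 aggrecan-cleaving enzymes and their inhibitor, only *Adamts8*, a protease of the ADAMTS family, was called, and it was higher in both models. It was 0.616 to 2.85 CPM in db/+ and 6.25 to 7.06 CPM in db/db, with 2.32 as its log2 fold change (adjusted p = 0.0164). It was 1.17 to 4.24 CPM in Con+Veh and 5.06 to 8.59 CPM in STZ-HFD, with 1.64 as the log2 fold change (adjusted p = 0.0405). In db/db this call was lost in edgeR's quasi-likelihood test, without quality weights, with the adipocyte score, from transcript totals and without db/+ replicate 3. In STZ-HFD it was lost in edgeR's quasi-likelihood test and DESeq2, without quality weights, with the adipocyte score, from transcript totals, with no filter or filterByExpr, with ribosomal RNA genes left out, with the muscle score, without the RIP libraries and without db/db replicate 3, db/+ replicate 3, Con+Veh replicate 3, Con+Veh replicate 4, STZ-HFD replicate 3 or STZ-HFD replicate 4. The other lecticans and link proteins, mainly of nervous tissue, had mean CPM up to 1.68 and no call. *Ncan* (neurocan) had a log2 fold change of 3.59 in db/db (adjusted p = 0.127) and *Bcan* (brevican) of -1.80 (adjusted p = 0.18), and in STZ-HFD *Hapln4* had -1.67 (adjusted p = 0.571) and *Ncan* -0.68 (adjusted p = 0.714).

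**Figure D5:**
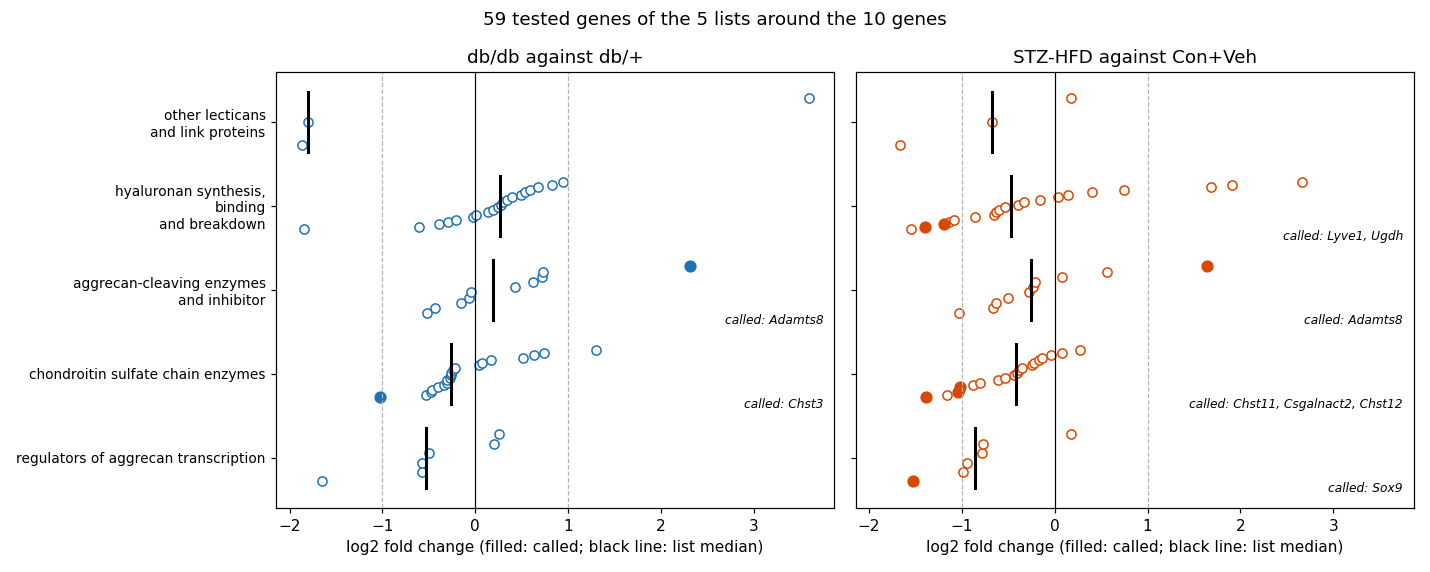
The log2 fold change of the 59 tested genes of the 5 lists in db/db (left) and STZ-HFD (right), 1 point per gene, filled where called, with the called genes named from lowest to highest beside their list, a black line at the median of each list and dashed lines at -1 and 1. In STZ-HFD the filled points are *Sox9*, *Ugdh*, *Lyve1*, *Chst11*, *Chst12*, *Csgalnact2* and, on the right side of 0, *Adamts8*.

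The genes most like each member across the 14 libraries were found by Pearson's r of log2 CPM, as a description, since libraries share their cohort, group and tissue makeup. For *Acan* they were *Xylt1* (r = 0.971), which begins the sugar chains of proteoglycans, *Slc39a14* (0.968), a metal ion transporter, and *Sox9* (0.967). For *Vcan* they were *Jpt2* (0.964), *Scara3* (0.963) and *Cytl1* (0.959), for *Hapln1* *Scrg1* (0.989), *Ucma* (0.974) and *Enpp1* (0.973), and for *Cd44* *Nfatc3* (0.959), *Casc4* (0.949) and *Dab2* (0.947). After the group means were removed, r of these 12 pairs was 0.68 to 0.93, highest for *Scrg1* with *Hapln1*. Of the genes nearest *Vcan*, *Cytl1* and *Scara3* were called lower in STZ-HFD at -2.92 (limma, adjusted p = 0.00104) and -1.58 (adjusted p = 0.000524) on the log2 scale. In db/db they had -0.62 (adjusted p = 0.509) and -0.16 (adjusted p = 0.755). *Scrg1* (-1.86, adjusted p = 0.0399), *Casc4* (-1.03, adjusted p = 0.0205) and *Sox9* were also called lower in STZ-HFD, where 1.31% of all genes were. The choice used the STZ-HFD libraries, so lower values there are partly built in and are no separate result.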

How the data were processed

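RNA of caudal discs from 14 mice was sequenced. The authors aligned reads with STAR to Ensembl release 101 and deposited gene counts from featureCounts and estimated counts per transcript from Salmon, neither normalized; all 14 samples were mapped by label. Identical repeated lines (287 of 55774) were used once. Here, R 4.3.3, limma 3.58.1 and edgeR 4.0.16 were used: TMM factors, genes with CPM above 1 in at least 3 libraries, voomWithQualityWeights, 1 mean per group, Benjamini-Hochberg adjustment over 16915 genes. The study's methods name voomWithQualityWeights, so edgeR's quasi-likelihood test and DESeq2 1.42.0 were alternatives. Ratios used counts plus 0.5 and transcript shares the estimated counts, with exact permutation tests (scipy 1.17.1). Positions came from GENCODE M21 on GRCm38 and promoters from RefSeq. Fits were tested on simulated data. Other genes to be named were those called in a list, the 2 of lowest p in a list without a call, and the 3 most correlated with *Acan*, *Vcan*, *Hapln1* and *Cd44*. Members, lists and tests were chosen with earlier results of these data known. Totals were 16076908 to 58943169 counts per library. No 2 replicates were repeats (chi-square per degree of freedom 54.8 to 578). Replicates are separate mice.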

Additional observations from a re-analysis of the deposited data

Results flagged for a closer look

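*Hapln3* was 7.906 CPM in Con+Veh replicate 1 and 2.115 to 3.042 CPM in the other 3 Con+Veh mice. *Has3* was 9.699 CPM in the same library and 2.444 to 2.933 CPM in the others. *Has1* was 6.705 CPM in STZ-HFD replicate 2 and 2.640 to 3.062 CPM in the other STZ-HFD mice. In each case 1 library lay past Dixon's 95% critical value, in 3 of 32 groups of 4 examined, where chance gives about 1 in 20.

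The response of *Vcan* differed between the models by -2.087 on the log2 scale (limma, adjusted p = 0.0479). *Cd44* was higher in all db/db than in all db/+ mice, as were 14.1% of all genes. It was lower in all STZ-HFD than in all Con+Veh mice, as were 2.77%. Its log2 fold change in db/db was only 0.17 (limma, adjusted p = 0.748) and changed sign in 4 alternative fits. The difference of its responses, -1.14, did not pass the test (limma, adjusted p = 0.0916).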

How the results depend on the processing

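The 3 calls among the 10 genes in STZ-HFD became 1 with edgeR's quasi-likelihood test, without quality weights, with no filter on low counts, with the muscle score and from transcript totals, 2 with DESeq2 (not *Hapln1*), 4 with the GC correction and without the RIP libraries (*Cd44* added), 0 with the adipocyte score, and 1 to 4 with 1 library left out. Over all genes, the 441 calls in STZ-HFD became 29 with edgeR, 19 without weights, 130 with no filter and 127 with the muscle score. They became 57 from transcript totals, 277 with DESeq2, 493 with the GC correction, 244 without the RIP libraries and 1 with the adipocyte score. With 1 library left out they ran from 17 to 642, at 17, 18 and 18 without Con+Veh replicate 3, Con+Veh replicate 4 and STZ-HFD replicate 3. The single call on the difference of responses became 0 with edgeR, without weights, with no filter, with filterByExpr, with the GC correction, with either score and from transcript totals, 2 without the RIP libraries, and 0 to 3 with 1 library left out. Over all genes, the 299 calls on the difference became 5 with edgeR, 3 without weights, 240 with no filter and 154 with filterByExpr. They became 193 with the GC correction, 49 with either score, 63 from transcript totals and 114 without the RIP libraries. The 7 pathway calls in STZ-HFD became 0 with edgeR, no filter, the adipocyte score and transcript totals, 1 without weights or with the muscle score, 2 with DESeq2, 3 with filterByExpr, 4 without ribosomal RNA genes, 9 with block and GC correction, and 0 to 8 with 1 library left out. The 2 in db/db became 0 with edgeR, without weights and with the adipocyte score, 1 with filterByExpr, the GC correction and transcript totals, and 0 to 2 with 1 library left out. Over all genes, the 281 calls in db/db became 0 with edgeR, 9 without weights and 0 with the adipocyte score. They became 236 with filterByExpr, 184 with the GC correction and 152 from transcript totals. The causes were not tested.

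Same-numbered mice did not deviate together on average (mean r -0.091 in the db and -0.111 in the STZ cohort). Single values in the db cohort ran from -0.28 to 0.192. With so few mice this check showed no pairing by number but cannot exclude it. With the replicate block, 3 of the 10 genes were called in STZ-HFD and 0 in db/db, 2 on the difference, 10 pathway genes in STZ-HFD, and in db/db 4 without *Chst3*. Over all genes that fit called 997 in STZ-HFD, 425 in db/db and 382 on the difference. The block gave *Hyal2* -0.0520 in STZ-HFD, and the block with GC correction gave *Hapln1* -0.23, *Has1* -0.004215 and *Cd44* -0.10 in db/db.

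Other changes of sign were all in values that had passed no test. In db/db the GC correction gave *Hapln1* -0.0370, *Hyal2* 0.0369 and *Cd44* -0.0185, the muscle score *Has1* -0.0526, *Hyal1* -0.50 and *Cd44* -0.004068, the adipocyte score *Hapln1* -0.60 and *Cd44* -0.18, and transcript totals *Has1* -0.12, *Hyal1* -1.11, *Hyal2* 1.06 and a *Has2* to *Hyal2* log2 difference of -0.62. In STZ-HFD *Has3* was -0.13 with edgeR, -0.12 with DESeq2 and -0.0162 without weights, and *Hyal2* was -0.0623 with edgeR, -0.0455 with DESeq2, -0.20 with the muscle score, -0.26 with the adipocyte score and -0.0832 without the RIP libraries. *Hyal1* there was 0.43, 0.79 and 0.49 with the scores and from transcript totals, and the *Acan* difference was 0.82 with the muscle score. With 1 library left out, ranges in db/db were -0.31 to 0.41 for *Has1*, -0.24 to 0.38 for *Hyal1*, -0.90 to 0.0168 for *Acan* to *Vcan*, -5.141 to 1.576 points for Vcan-203 and -1.477 to 4.995 for Vcan-206. In STZ-HFD they were -0.18 to 0.38 for *Hyal2*, -0.10 to 0.45 for *Has3*, -0.60 to 0.20 for *Acan* to *Hapln1* and -6.33 to 2.286 points for Acan-202. Counts of 21 to 591 limit the 6 low genes.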
